A study of Caenorhabditis elegans with 36 samples.

Results

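The 51 genes described here carried only a clone-style name in the deposited table, such as R08E5.3, and their level was higher in worms fed cco-1 RNAi than in control worms at every one of 6 ages. They were chosen by 3 conditions on the measured values. The symbol began with a capital letter or a digit and contained a dot. The gene reached 1 CPM in at least 3 of the 36 libraries. The group mean of log2(CPM + 1) in cco-1 exceeded that in ev by more than 0.5 at each of the 6 ages. These ran from day 1 to day 11 of adulthood in steps of 2 days. CPM is a read count scaled to the size of the library, and the deposited values look quantile normalized as well. Of the 18949 genes in the table, 10155 had such a name and 8143 of these passed the filter on low values, so that the 51 members were 0.626% of the clone-named genes tested. No clone-named gene met the differences and failed the filter. In 48 members at least 3 ev libraries reached 1 CPM, whereas F41C3.1, C54E10.1 and C25F6.8 reached it in no ev library and passed through cco-1 libraries alone. Since the choice used the difference between cco-1 and ev at all ages, these differences are given as a description without a test.

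The worms were N2, labelled WT, and RNA came from the whole organism. The ev groups received control RNAi bacteria and the cco-1 groups received bacteria for cco-1 RNAi, mixed with control bacteria at 50% each according to the labels. RNAi was started from L1 in all groups, and the treatment field gives collection after 2.5 days for each sample, while the titles give the day of adulthood that was used here. Each of the 12 groups had 3 replicates, and nothing in the labels says whether these came from separate cultures. In whole worms, a lower number of cells of a type and less RNA per cell cannot be told apart.

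The gene cco-1 codes for a part of respiratory complex IV in mitochondria, and its knockdown during development is a classical way to stress mitochondria and lengthen lifespan in C. elegans. Mitochondrial stress is known to switch on nuclear genes, among them mitochondrial chaperones and proteases, and it also reaches genes of metabolism, detoxification and the lysosome. A clone-style name is an address on a sequenced piece of the genome, and such genes are often little studied.

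A few facts of the whole series bear on the values. The level of cco-1 itself was lower under its own RNAi in all 3 libraries at each age, with a log2 difference between -0.57 at day 1 and -1.57 at day 3. Among the cco-1 libraries of days 9 and 11, the replicates spread more than elsewhere, with a median SD over the members of 0.21 and 0.18 on the log2(CPM + 1) scale, against 0.06 to 0.11 in the other 10 groups. Replicate 2 was the lowest of the 3 cco-1 libraries for 36 of the 51 members at day 9 and for 36 at day 11, against 34.2% and 32.1% of all genes tested. The part of this library in the results was not tested beyond leaving it out.

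The annotation of Ensembl release 115 on WBcel235, the assembly the authors mapped to, held all 51 members. It gave 47 as protein-coding, C54E10.1 and Y39B6A.21 as pseudogenes, H36L18.2 as a long intergenic noncoding RNA and R106.6 as a noncoding RNA of 90 bases of exon. The coding length of the protein-coding members had a median of 924 bp and ranged from 258 to 5691 bp, beside a median of 912 bp over the 7469 protein-coding clone-named genes tested. Current gene names existed for 8 members. R08E5.3 is rips-1, named as an interactor of RHY-1 in the response to hydrogen sulfide, and F58G6.9 is chca-1, a member of the CTR family of copper transporters. F57F5.1 is cpr-9, a cathepsin B-like cysteine protease of the lysosome. Y38F1A.6 is hphd-1, the hydroxyacid-oxoacid transhydrogenase of the propionate shunt, and H28G03.1 is hrpa-2, a relative of the hnRNP A RNA-binding proteins. H36L18.2 is lep-5, a long noncoding RNA of developmental timing, and C23H4.2 and C45E5.4 carry the family names cest-8 (carboxylesterases) and cpg-18 (chondroitin proteoglycans). The sources used here gave no role for the other members, and none is assigned.

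By position, chromosome V held 20 of the 51 members (39.2%), beside 19.7% of the 8062 clone-named genes tested that were found in the annotation. Chromosome X held 11 (21.6%, beside 13.7%), chromosome IV held 8 (15.7%, beside 17.6%), chromosome II held 6 (11.8%, beside 18%), and chromosomes I and III held 3 each (5.88%, beside 16.2% and 14.8%). Exons of 15 members overlapped exons of another gene, in 12 cases only on the opposite strand. Because the authors counted reads without regard to strand, reads in such a stretch cannot be told apart by strand. The overlap covered over 20% of the exons in 3 members only. These were R106.6, which lies wholly within the noncoding gene R106.8, F42G2.2, of whose exons 35.6% are shared with the antisense gene anr-39, and C23H4.2, of whose exons 25.8% are shared with cest-9.2. Because of this overlap the values of these 3 are uncertain. It is on the same strand for R106.6 and C23H4.2 and on the opposite strand for F42G2.2.

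Among the 51 members the difference between cco-1 and ev varied in size and in timing. From the youngest to the oldest age, the median difference on the log2(CPM + 1) scale took the values 0.90, 1.01, 1.33, 1.14, 0.92 and 1.08, while the median over all genes tested lay between -0.08 and 0.06. The difference was largest at day 1 in 9 members, at day 3 in 3, at day 5 in 15, at day 7 in 8, at day 9 in 2 and at day 11 in 14. It was smallest at day 1 in 17 members and at day 9 in 17. The members thus included genes raised most in young adults and genes raised most in old ones. Just inside the threshold of 0.5 lay B0035.13 with a smallest difference of 0.50 at day 1, F31A3.3 with 0.51 at day 9 and C24B9.3 with 0.51 at day 3, and just outside lay T26C5.4, Y48C3A.3 and F54F7.3, each with 0.49.

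**Figure D1:**
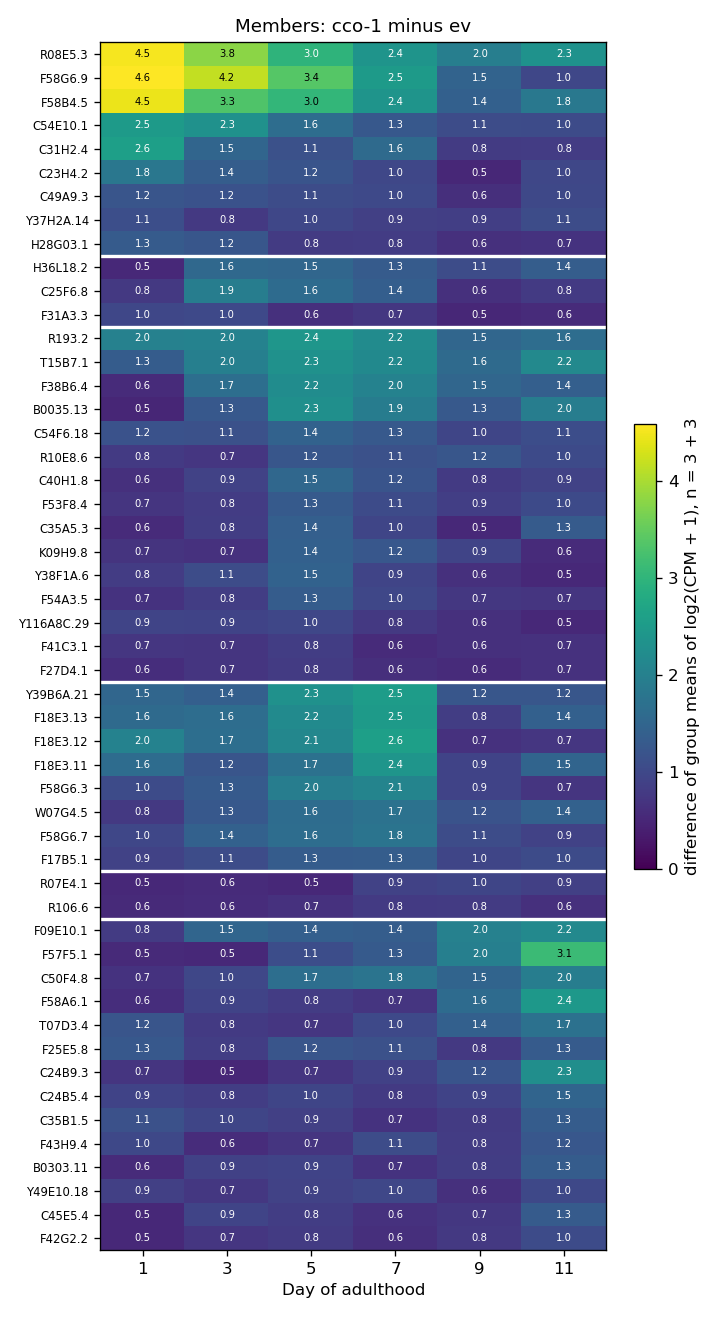
Difference of the group means of log2(CPM + 1), cco-1 minus ev (colour and printed value, 3 libraries in each group), for the 51 members (rows) by day of adulthood (columns). White lines part the members by the day of their largest difference. R08E5.3, F58G6.9 and F58B4.5 stand at 4.52, 4.59 and 4.46 at day 1, and F57F5.1 reaches 3.1 at day 11.

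At the level of single libraries, all 3 cco-1 libraries lay above all 3 ev libraries at all 6 days in 49 of the 51 members. Over all genes tested this was the case in 591 of 15713 genes (3.76%), and since the choice used the same libraries nothing is read from the contrast. The 2 exceptions were F18E3.13 at day 9 and F18E3.12 at day 11, in both cases through replicate 2 of cco-1. Without that library at days 9 and 11, all 51 members were free of overlap, beside 719 of all genes tested. When the choice was repeated without replicate 1, 2 or 3, it gave 45, 47 and 46 genes, of which 41, 43 and 42 were among the 51 members. In the replicate left out, every gene so chosen had a difference above 0 at all 6 days, and 31 of 45, 24 of 47 and 34 of 46 stayed above 0.5 at all of them. That difference was taken between the cco-1 and ev libraries of the same number, which are not paired. The filter of 1 CPM still used all 36 libraries, and no share over all genes tested is given beside these counts. The lowest single value in a left-out replicate was 0.05, in replicate 2. The cco-1 libraries of days 9 and 11 are not free of each other, since the deviations from their group means correlated across genes at 0.65 in replicate 1 and 0.66 in replicate 2 (-0.03 in replicate 3), and no test is attached to these counts.

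The most strongly raised members, by the mean difference over the 6 days among those with at least 10 CPM in cco-1, were R08E5.3, F58G6.9, F58B4.5, R193.2, T15B7.1, F18E3.13, F18E3.12, F38B6.4, F18E3.11 and B0035.13. The first 3 had a like course. Their ev level was under 12 CPM in all 18 libraries, and the cco-1 level was highest at day 1 and fell afterwards.

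R08E5.3 (rips-1, chromosome V, 3772021 to 3774609, plus strand) had 6.51, 6.89 and 6.56 CPM in ev and 166, 183 and 176 CPM in cco-1 at day 1. At day 11 it had 2.57, 3.66 and 3.46 CPM in ev and 24.6, 17.8 and 18.8 CPM in cco-1. The groups did not overlap at either age, and the ratio of the group means went from 26.3 at day 1 through 9.06 at day 5 to 6.32 at day 11. Of its exons, 5.14% overlap cysl-3 on the opposite strand.

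F58G6.9 (chca-1, the copper transporter) had 3.92, 3.91 and 4.68 CPM in ev and 126, 122 and 123 CPM in cco-1 at day 1. At day 5 its ev libraries were at 0.872, 0.502 and 0.755 CPM and its cco-1 libraries at 15.8, 18.2 and 16.2 CPM. At day 11, ev stood at 1.92, 1.58 and 1.77 CPM and cco-1 at 5.15, 3.98 and 4.21 CPM. Its ratio of group means was the highest of these 3 genes at day 1, at 29.6, and the lowest of them at day 11, at 2.53.

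F58B4.5 (chromosome V, 10932693 to 10934245, plus strand), for which no role is given, had 7.17, 7.61 and 7.24 CPM in ev and 186, 184 and 179 CPM in cco-1 at day 1. In ev it was highest at day 7, with 11.2, 11.0 and 10.9 CPM, when cco-1 stood at 65, 59.8 and 59.9 CPM. At day 11 it had 3.48, 3.49 and 3.33 CPM in ev and 17.4, 12.9 and 14.6 CPM in cco-1, a ratio of group means of 4.36 against 24.9 at day 1.

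Another 6 members had their largest difference at day 1. The pseudogene C54E10.1 was between 0.264 and 0.649 CPM in the 18 ev libraries and at 7.33, 6.36 and 6.67 CPM in cco-1 at day 1, and its difference went from 2.50 at day 1 to 1.05 at day 11. C31H2.4 had a difference of 2.60 at day 1 and 0.81 at day 11, and C23H4.2 (cest-8) of 1.82 and 0.98. H28G03.1 (hrpa-2) was at 159, 155 and 154 CPM in ev and 387, 393 and 394 CPM in cco-1 at day 1, and at 51.5, 53.4 and 54.6 CPM against 98.0, 74.0 and 87.0 CPM at day 11.

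A further set had the largest difference on the log2(CPM + 1) scale at days 5 and 7. R193.2 (chromosome X) had 86.1, 84.0 and 83.4 CPM in ev and 340, 349 and 342 CPM in cco-1 at day 1. At day 5 it had 21.2, 19.8 and 22.5 CPM in ev and 124, 97.9 and 131 CPM in cco-1, and at day 11 it had 6.57, 7.50 and 7.25 CPM against 29.6, 17.2 and 27.7 CPM. The level fell with age in both, and the ratio of group means stayed between 3.22 and 5.56.

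T15B7.1 had 50.9, 52.9 and 47.4 CPM in ev and 130, 130 and 124 CPM in cco-1 at day 1, and 14.7, 12.5 and 14.8 CPM against 70.8, 79.6 and 72.0 CPM at day 5. At day 11 it had 1.73, 0.894 and 1.34 CPM in ev and 11.9, 7.21 and 9.34 CPM in cco-1. Its difference on the log2(CPM + 1) scale was largest at day 5. The ratio of group means was 5.31 at day 5 and 7.17 at day 11, where ev was near 1 CPM. Exons of T15B7.1 overlap those of lgc-54 on the opposite strand over 148 bp of the 1479 bp of its exons.

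F38B6.4 and B0035.13 began near the threshold. F38B6.4 had 53.2, 54 and 54.9 CPM in ev and 77.5, 83.0 and 79.4 CPM in cco-1 at day 1, a difference of 0.56. At day 5 it had 5.06, 4.11 and 5.16 CPM in ev and 27.4, 24.3 and 26.1 CPM in cco-1, a difference of 2.23. B0035.13 took another course, since its cco-1 level went up before it went down. It had 35.0, 32.4 and 34.9 CPM in ev and 46.7, 50.5 and 49 CPM in cco-1 at day 1, and 18.3, 19.7 and 18.1 CPM against 98.4, 94.4 and 93.4 CPM at day 5. At day 11 its ev libraries were at 3.35, 3.07 and 3.40 CPM and its cco-1 libraries at 21.4, 10.8 and 16.1 CPM, with replicate 2 the lowest.

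Y38F1A.6 (hphd-1) also differed most at day 5. It had 171, 183 and 176 CPM in ev and 313, 316 and 311 CPM in cco-1 at day 1, and 28.5, 26.3 and 24.8 CPM against 78.0, 73.0 and 71.5 CPM at day 5. In the oldest worms, at day 11, it had 19.9, 20.4 and 22.1 CPM in ev and 34.5, 27.5 and 29.9 CPM in cco-1, and the difference had come down from 1.45 to 0.53.

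F57F5.1 (cpr-9, chromosome V, 12003053 to 12004584, plus strand) is the member that the study names, and it had the highest mean level per kb of exon of all members in cco-1. Its difference grew at each age after day 3. It had 248, 250 and 248 CPM in ev and 367, 368 and 356 CPM in cco-1 at day 1, and 203, 199 and 198 CPM against 488, 500 and 492 CPM at day 7. At day 9 the ev libraries were at 33.8, 39.5 and 35.3 CPM and the cco-1 libraries at 206, 96.2 and 155 CPM. At day 11, ev stood at 18.7, 16.7 and 16.8 CPM and cco-1 at 239, 99.2 and 175 CPM. The groups were apart at each of these ages, although replicate 2 of cco-1 was the lowest at days 9 and 11. The ratio of group means was 1.46 at day 1 and 9.82 at day 11.

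In C24B9.3, too, the difference was largest at day 11. It had 66.3, 68.4 and 69.0 CPM in ev and 109, 108 and 116 CPM in cco-1 at day 1, and 4.54, 3.49 and 4.18 CPM against 31.3, 15.6 and 25.9 CPM at day 11, so that its difference went from 0.70 to 2.27. F09E10.1 went from 0.80 to 2.16, C50F4.8 from 0.66 to 1.95 and F58A6.1 from 0.60 to 2.45.

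F54A3.5, C35B1.5 and F27D4.1, which follow F57F5.1 in level per kb of exon, had smaller differences at day 11 than F57F5.1. F27D4.1 had 165, 162 and 161 CPM in ev and 243, 249 and 245 CPM in cco-1 at day 1, and its difference stayed between 0.57 and 0.79. F54A3.5 had 56.5, 55.8 and 57.3 CPM in ev and 86.3, 93.7 and 94.0 CPM in cco-1 at day 1, and 38.8, 52.3 and 48.0 CPM against 78.9, 72.2 and 76.8 CPM at day 11. C35B1.5 had 78.9, 86.7 and 84.7 CPM in ev and 175, 185 and 193 CPM in cco-1 at day 1. In these 3 genes the libraries of the groups did not overlap at any age.

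H36L18.2 (lep-5), the long noncoding RNA, was at 136, 124 and 120 CPM in ev and 176, 191 and 178 CPM in cco-1 at day 1. At day 3 the ev libraries had dropped to 22, 22.1 and 23.8 CPM and the cco-1 libraries to 69.9, 62.7 and 74.1 CPM. A difference of 0.52 at day 1 became 1.56 at day 3, and at day 11 it stood at 1.36. The libraries were made with polyA enrichment, so that RNA without a polyA tail would be undercounted.

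To compare the levels of different genes, values were taken per length of exon. On the scale of CPM per kb of merged exon, averaged over the 18 cco-1 libraries, F57F5.1 was highest at 247, followed by F54A3.5 at 175, C35B1.5 at 157, F27D4.1 at 128 and H36L18.2 at 125. In the 18 ev libraries the same 5 genes averaged 121, 94.7, 78.6, 81.0 and 63.5 CPM per kb. R08E5.3, F58B4.5 and F58G6.9 averaged 45.5, 53.1 and 33.9 CPM per kb in cco-1, and 3.69, 5.21 and 1.67 CPM per kb in ev.

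**Figure D2:**
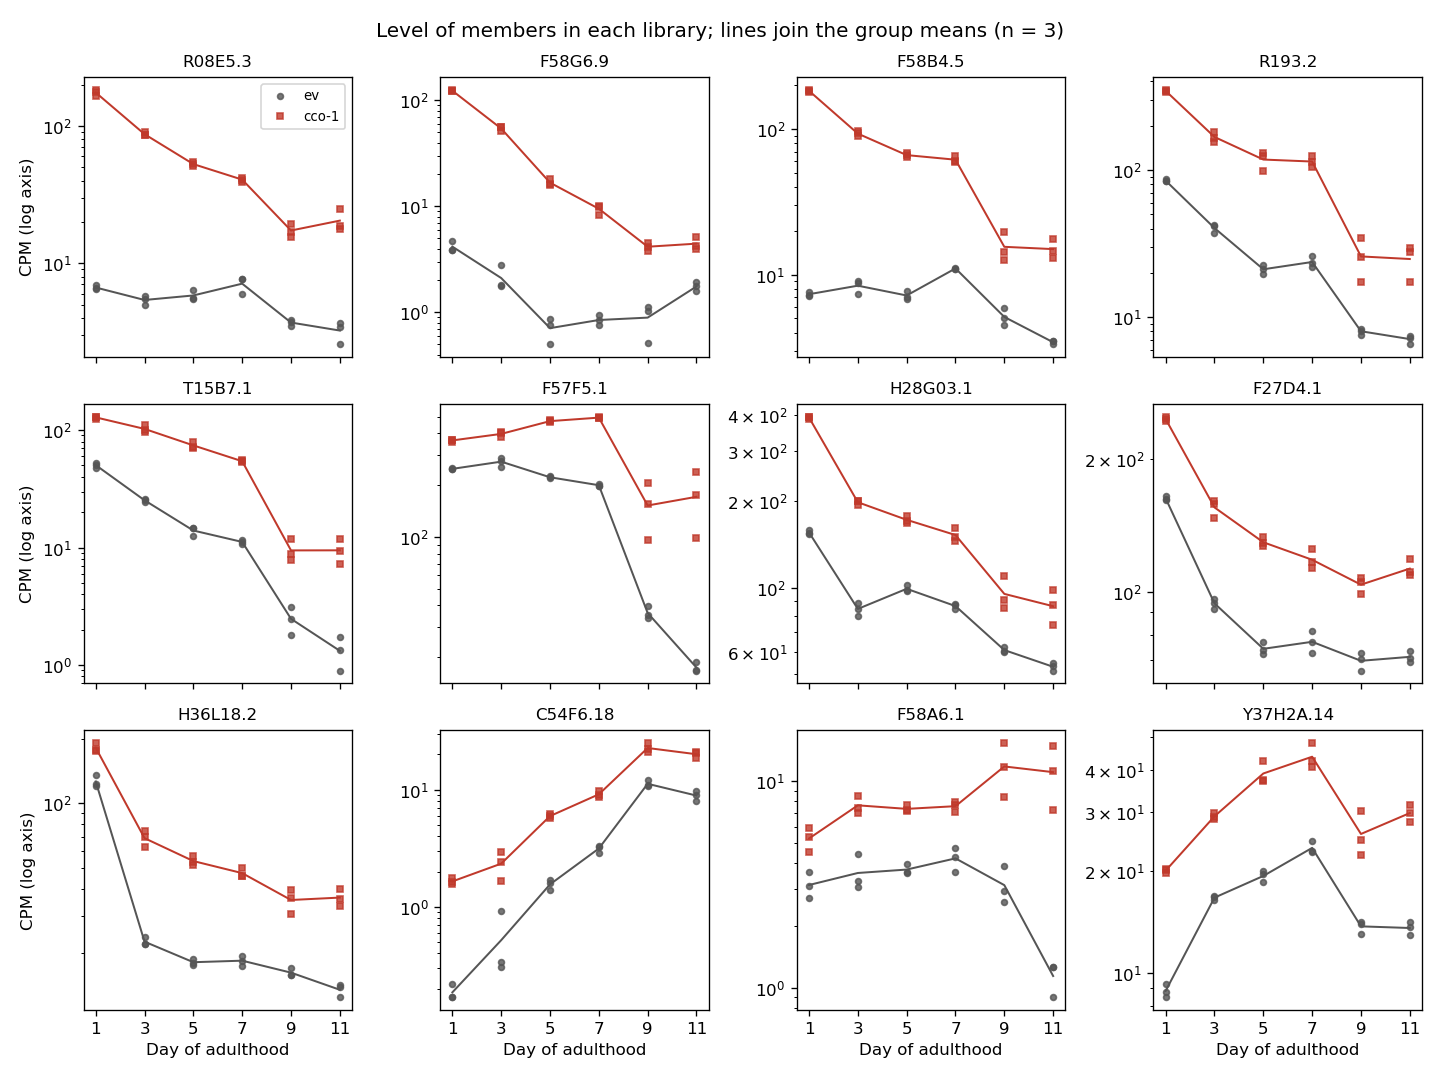
Level in CPM (log axis) of 12 of the members in each library by day of adulthood, with ev as grey circles, cco-1 as red squares and lines through the group means of 3 libraries. The grey ev points of R08E5.3 stay under 8 CPM while the red points fall from 166 CPM or more at day 1 to between 17.8 and 24.6 CPM at day 11, and both groups of C54F6.18 climb with age.

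Members lying close together on a chromosome formed 2 groups of 3, taking gaps of up to 10000 bp. F58G6.9, F58G6.3 and F58G6.7 lie within 4195 bp of chromosome IV (9651394 to 9655588), all on the plus strand. F58G6.3 had 9.29, 9.87 and 9.23 CPM in ev and 21.4, 20.5 and 19.8 CPM in cco-1 at day 1, and F58G6.7 had 26.1, 26.0 and 24.2 CPM against 49.1, 54.2 and 49.3 CPM. Their differences at day 1, 1.04 and 0.97, were far under the 4.59 of F58G6.9, and both were largest at day 7, with 2.07 and 1.77, when that of F58G6.9 was 2.50. Of the nearest genes within 3000 bp, srm-3 had differences of 1.04 at day 1 and 0.24 at day 11 and was no member, and acc-1 did not pass the filter.

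F18E3.11, F18E3.12 and F18E3.13 lie within 2952 bp of chromosome V (7413482 to 7416433), also all on the plus strand, with 273, 270 and 270 bp of exon. Only uniquely mapped reads were counted by the authors, and how alike the 3 genes are in sequence was not analysed here, so that the split of reads among them is uncertain. At day 1, F18E3.11 had 13.7, 14.1 and 13.2 CPM in ev and 45.3, 44.8 and 41.9 CPM in cco-1. F18E3.12 had 9.52, 9.87 and 9.66 CPM against 40.3, 43.9 and 45 CPM, and F18E3.13 had 18.1, 17.6 and 16.9 CPM against 58.1, 54.8 and 52.0 CPM. On the log2(CPM + 1) scale all 3 differences were largest at day 7, at 2.40, 2.60 and 2.49, and lower at day 9, at 0.92, 0.66 and 0.84. The ratio of group means of F18E3.11 and F18E3.13 was 6.94 and 7.13 at day 7. At day 11 it was 8.47 and 8.48, where their ev means were 0.369 and 0.341 CPM. For F18E3.12 the ratio was 11.2 at day 7 and 4.51 at day 11. At day 11, F18E3.12 was at 0.329, 0.189 and 0.313 CPM in ev and at 2.04, 0.236 and 1.47 CPM in cco-1, and replicate 2 of cco-1 lay within the range of ev. The neighbour R13D7.2 had a difference of -0.13 at day 1 and 1.18 at day 7.

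**Figure D3:**
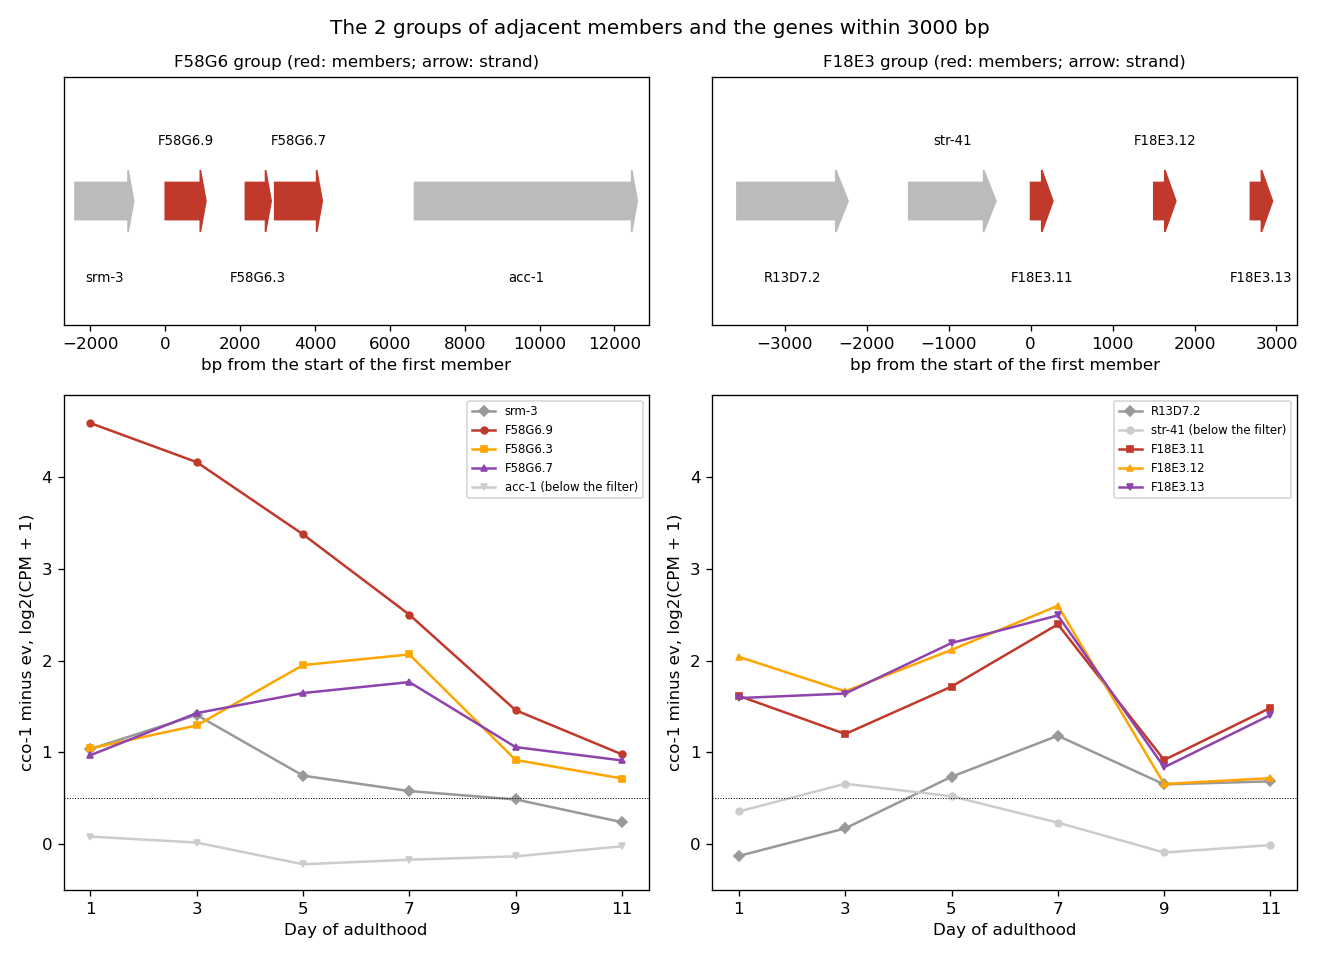
Top, annotated genes around the 2 groups of adjacent members, drawn to scale in bp from the start of the first member, with members in red and arrows for the strand. Bottom, cco-1 minus ev of log2(CPM + 1) by day of adulthood for each gene drawn, with a dotted line at the threshold of 0.5. On this scale the 3 F18E3 genes run close together with a peak of 2.40 to 2.60 at day 7, while F58G6.9 starts at 4.59 and its neighbours F58G6.3 and F58G6.7 at 1.04 and 0.97.

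The change with age within ev and within cco-1 was not part of the choice, although the same libraries entered it, and was tested with limma across 15713 genes (a call needs an absolute log2 change over 0.5 and a Benjamini-Hochberg adjusted p under 0.05). Most members were lower in old worms. In ev, 41 of the 51 members were lower at day 11 than at day 1 and 2 were higher, whereas 27.4% of all genes tested were lower and 41.8% higher. The median change of the members was -1.53, beside 0.31 over all genes tested. In cco-1, 39 members were lower and 4 higher, beside 23.7% and 34.1% of all genes tested, with a median of -1.47 against 0.18. In 37 members the level was lower in both ev and cco-1, with no share over all genes tested given beside this count. Accordingly, day 1 was the age of the highest group mean for 33 members in ev and 34 in cco-1, beside 27.4% and 27.8% of all genes tested.

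Among the members that fell most in ev, F38B6.4 changed by -4.76 ± 0.10 (SE, limma adjusted p = 5.0e-32), T15B7.1 by -4.48 ± 0.14 (8.0e-23), C35A5.3 by -3.89 ± 0.13 (1.6e-24) and F18E3.13 by -3.79 ± 0.29 (5.0e-12). In cco-1 the largest falls with age were those of F58G6.9 at -4.52 ± 0.12 (SE, limma adjusted p = 1.1e-29), F18E3.12 at -4.39 ± 0.19 (7.0e-19), F18E3.13 at -3.97 ± 0.29 (2.5e-12) and F38B6.4 at -3.93 ± 0.10 (3.3e-29). In each of these 8 changes all 3 libraries of day 11 lay below all 3 of day 1. Since they were picked as the largest falls, nothing is read from this. F58G6.9, R08E5.3 and F58B4.5 fell in ev by 0.91, 0.86 and 0.91 on the log2(CPM + 1) scale and in cco-1 by 4.52, 3.05 and 3.53. F57F5.1 lay on the other side, with -3.76 ± 0.20 in ev (limma adjusted p = 2.2e-15) and -1.17 ± 0.20 in cco-1 (9.2e-06). The difference between the age changes in ev and cco-1 follows from the values that chose the members and was not tested. As values, the change was higher in cco-1 than in ev for 29 members and lower for 22.

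Few members rose with age. C54F6.18, of no stated role, was at 0.170, 0.169 and 0.220 CPM in ev and 1.75, 1.64 and 1.55 CPM in cco-1 at day 1, and at 9.79, 7.97 and 8.97 CPM in ev and 20.9, 18.8 and 20.6 CPM in cco-1 at day 11. All libraries of day 11 were above those of day 1, with changes of 3.06 ± 0.12 in ev (limma adjusted p = 2.2e-24) and 2.99 ± 0.12 in cco-1 (7.0e-24). Y37H2A.14 rose by 0.57 ± 0.08 in ev (limma adjusted p = 1.1e-08) and 0.54 ± 0.08 in cco-1 (3.5e-08), from 9.29, 8.80 and 8.47 CPM to 14.2, 13.7 and 12.9 CPM in ev and from 20.3, 19.8 and 20.1 CPM to 31.5, 28.0 and 29.8 CPM in cco-1. Its highest level in both came at day 7.

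F58A6.1 was called in opposite directions. In ev it went from 3.11, 2.71 and 3.62 CPM at day 1 to 1.26, 1.26 and 0.899 CPM at day 11, a change of -0.95 ± 0.17 (SE, limma adjusted p = 5.7e-06). In cco-1 it went from 5.39, 5.91 and 4.54 CPM to 14.8, 7.26 and 11.2 CPM, a change of 0.90 ± 0.17 (limma adjusted p = 1.7e-05). The libraries of day 11 and day 1 did not overlap in either. The noncoding RNA R106.6 rose by 0.51 ± 0.16 in cco-1 (limma adjusted p = 0.0032) and changed by 0.43 ± 0.16 in ev, which did not pass the threshold on the change.

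**Figure D4:**
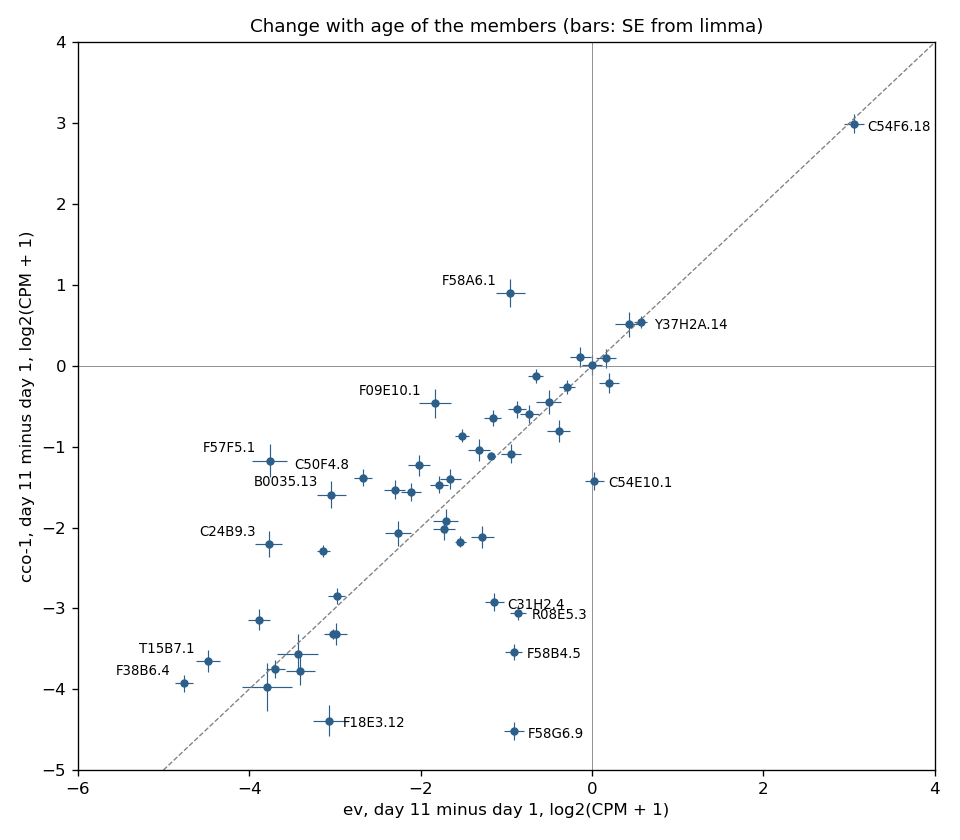
Change from day 1 to day 11 on the log2(CPM + 1) scale in ev (horizontal) and in cco-1 (vertical) for the 51 members, with standard errors from limma and a dashed line of equal change. F58G6.9, F58B4.5 and R08E5.3 lie far below the line, F57F5.1 above it, and F58A6.1 alone was called lower in ev and higher in cco-1.

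The age change was also tested over 2 shorter steps. Between day 1 and day 3, 21 members were lower and 2 higher in ev, beside 23.6% and 28.7% of all genes tested, and 21 were lower and 4 higher in cco-1, beside 19.6% and 24.6%. The largest early drop in ev was that of H36L18.2, by 2.43 on the log2 scale, with a fall of 1.39 in cco-1. Between day 7 and day 9, a step chosen after seeing the data, 27 members were lower and 1 was higher in ev, beside 16.6% and 17.1% of all genes tested. With a pseudocount of 5 CPM in place of 1 CPM, 13 members were lower in ev over this step. The share of all genes tested is not given at that setting, so that this count has no background beside it. In cco-1, 35 were lower and 2 higher over this step, beside 13.9% and 13.3%. F57F5.1 changed over this step by -2.44 ± 0.20 in ev and -1.76 ± 0.20 in cco-1, B0035.13 by -1.76 ± 0.17 and -2.40 ± 0.17, and F18E3.12 by -0.67 ± 0.19 and -2.62 ± 0.19, all of them called by limma. The group mean of F18E3.12 went from 0.988 to 0.247 CPM in ev, where log2(CPM + 1) understates the change. In cco-1 it went from 11.0 to 1.02 CPM. Leaving out replicate 2 changed the number lower in cco-1 from 35 to 33. The count of 33 too has no share of all genes tested beside it.

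Lists of named genes of the pathways that the study addresses were read beside the members, cco-1 against ev with the same limma fit. At day 1, 4.63% of all genes tested were higher and 4.46% lower in cco-1, and at day 11, 15.1% and 13.3%. Of 11 tested mitochondrial stress chaperones, proteases and regulators, 3 were higher at day 1 and 1 was lower. The importer timm-23 differed by 1.17 ± 0.10, the co-chaperone dnj-10 by 0.73 ± 0.05 and the matrix protease subunit clpp-1 by 0.50 ± 0.07, while the regulator dve-1 differed by -0.53 ± 0.07. The chaperone hsp-6 at 0.495 ± 0.056 (limma adjusted p = 2.7e-09) and haf-1 at 0.498 ± 0.137 (0.0045) lay just under the threshold of 0.5. None of the 11 was called at day 11 by limma at the threshold of 0.5, and 8 had an unadjusted p under 0.05. These 8 also had a limma adjusted p under 0.05, the highest being 0.020 for hsp-60, and missed the call by size alone. The median of the 11 at day 11 was -0.15, beside -0.08 over all genes tested. Both directions occurred, with spg-7 at -0.44 ± 0.10, dnj-10 at -0.33 ± 0.05, dve-1 at 0.45 ± 0.07 and hsp-6 at 0.26 ± 0.06.

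Of 29 tested lysosomal proteases with a gene name, 7 were higher and 5 lower at day 1, with a median of -0.07, and 27 were higher and 1 lower at day 11, with a median of 1.29. The cathepsin B-like cpr-5 differed by 3.60 ± 0.11 at day 1 and 2.91 ± 0.11 at day 11, and the aspartic protease asp-8 by 3.38 ± 0.11 and 1.61 ± 0.11. The cathepsin B-like cpr-4 went from -0.29 ± 0.07 at day 1, which was not called, to 2.74 ± 0.07 at day 11. F57F5.1, of the same family, had 0.55 and 3.14. Of 7 GATA factors of intestine and epidermis, none was higher and 1 lower at day 1 by limma, with an unadjusted p under 0.05 for 3, and 3 were higher and 2 lower at day 11. The gene elt-2, the main GATA factor of the adult intestine, differed by -0.63 ± 0.09 at day 1 and 0.98 ± 0.09 at day 11, and elt-3, of the epidermis, by 0.01 ± 0.10 and 1.25 ± 0.10.

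Markers of tissues moved with RNAi and with age as well. Of 10 intestinal markers, 2 were higher and 1 lower in cco-1 at day 1, and 9 were higher at day 11, with a summed level of 1547 to 1568 CPM in ev and 2004 to 2058 CPM in cco-1 at day 1, and 113 to 128 CPM against 242 to 308 CPM at day 11. Of 10 hypodermal markers, 8 were higher at day 1, at 1485 to 1494 CPM against 1809 to 1891 CPM, and 2 were higher and 2 lower at day 11, at 18 to 19.3 CPM against 18.8 to 32.4 CPM. Of 10 markers of body wall muscle, none was called at day 1 by limma (1 had an unadjusted p under 0.05) and 9 were higher at day 11, at 363 to 408 CPM against 981 to 1658 CPM. Of 6 vitellogenins, the yolk proteins made in the intestine, 5 were lower at day 1 and all 6 were higher at day 11. Of the pharyngeal, neuronal, germline and sperm markers (8, 10, 13 and 9 tested), none was called at day 1 by limma, with an unadjusted p under 0.05 for 1, 5, 5 and 2 of them. At day 11, 4, 3, 2 and 0 of them were higher and 1, 1, 0 and 1 lower, with an unadjusted p under 0.05 for 6, 8, 7 and 7. The table holds no value of 0, so that markers that were not detected cannot be told from low ones. With age in ev, 8 of the 10 intestinal, 9 of the 10 hypodermal and all 10 body wall muscle markers were lower at day 11, as were 41 of the 51 members. So were 5 of 8 pharyngeal, 6 of 10 neuronal and 6 of 9 sperm markers and all 6 vitellogenins, with 2, 1, 2 and 0 higher. Of all genes tested, 27.4% were lower and 41.8% higher. Among 13 germline markers, 7 were higher and 0 lower. The part of tissue make-up in the members' values was not tested.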

How the data were processed

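The deposited table gives 18949 genes in 36 libraries of polyA-enriched RNA of whole worms. The authors aligned reads to WBcel235 by STAR, took gene counts from htseq-count (exons, union mode, strand ignored, unique alignments only) and normalized with limma-voom. STAR 2.73a and edgeR 3.24.3 stand in the notes of the submitters. Values were read as CPM that the authors deposited after normalization: they are linear, not whole, never 0, and library sums range from 916765 to 953972. High ranks hold equal values in all libraries, as quantile normalization gives. Read depth is therefore unknown, and no counting interval is given. The authors' own fold changes and tests and a gene set table were not used.

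Columns were assigned by their names to 12 groups of 3. The values were analysed as log2(CPM + 1), which understates changes of low genes, after a filter of 1 CPM in 3 libraries that kept 15713 genes. limma 3.58.1 (R 4.3.3) fitted 12 group means with trended, robust variances (24 residual degrees of freedom) and adjusted p-values over all genes tested. p-values measure only the spread between these samples. The script was tested on simulated data. Python 3.11.15 was used for the choice of members. Members and lists were chosen with earlier results of these data known.

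Genes named in the text are the 10 members with the largest mean difference (at least 10 CPM in cco-1), the 10 with the highest CPM, the 4 with the largest called age change in each direction (at least 5 CPM), the member the study names, those next to the threshold and adjacent members; C54E10.1, C31H2.4, C23H4.2, F09E10.1, C50F4.8, R106.6, F42G2.2, Y39B6A.21, F41C3.1, C25F6.8 and C45E5.4 were added after seeing their values or annotation. Gene lists covered mitochondrial stress, lysosomal proteases, GATA factors and markers of intestine, hypodermis, body wall muscle, pharynx, neurons, germline, sperm and yolk. Alternatives were other pseudocounts, filters and thresholds, group medians, centring, a replicate block, only the groups compared, each replicate left out and, chosen after seeing the data, library weights by group and the step from day 7 to day 9. Promoter and protein sequences were not analysed here.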

Additional observations from a re-analysis of the deposited data

Results flagged for a closer look

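One member moved in opposite directions with age in every library. F58A6.1 changed from day 1 to day 11 by -0.95 in ev, where all 3 libraries of day 11 lay below all 3 of day 1, and by 0.90 in cco-1, where all 3 lay above. The difference between these changes was not tested, since the values of both groups had chosen the gene. In cco-1 the change was 1.22 without replicate 2, 0.70 without replicate 1 and 0.78 without replicate 3.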

How the results depend on the processing

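The number of members depends on the threshold and the pseudocount: it was 87 with a pseudocount of 0.1 CPM and 19 with 5 CPM, and 79, 31 and 6 with thresholds of 0.4, 0.6 and 1. The 51 members were kept in the wider sets, and no gene was added in the narrower ones. For the thresholds this is fixed in advance by the rule, and a larger pseudocount shrinks the differences. Nothing is therefore read from it. Leaving out a replicate gave 45 to 47 members. With a pseudocount of 0.1 CPM, 4 members were higher in ev at day 11 than at day 1, 4 at day 3 than at day 1 and 2 at day 9 than at day 7. With 5 CPM these counts of higher members became 1 in ev and 2 in cco-1 for day 11 against day 1, 2 in cco-1 for day 3 against day 1 and 1 in cco-1 for day 9 against day 7, and 13 members were lower in ev at day 9 than at day 7. The genes of the 3 named lists lower in cco-1 at day 11 were then 1 in place of 3. Y37H2A.14 kept its direction with 5 CPM, at 0.42 in ev and 0.47 in cco-1, and was not called. A larger pseudocount shrinks the changes of low genes by construction. Leaving out a replicate gave 1 to 2 members higher in cco-1 at day 9 than at day 7. The counts of members lower were 40 to 42 in ev and 39 to 40 in cco-1 for day 11 against day 1. No share over all genes tested is given at these alternative settings, so that these counts have no background beside them. The other alternatives, library weights by group included, kept every count within 1.5 times. Replicate numbers did not pair the samples (mean correlation of deviations -0.002 over 198 pairs with the same number, 11 of them above 0.1, and none of 66 pairs of groups with all 3 above 0.1). The highest values, 0.65 and 0.66, tied replicates 1 and 2 of cco-1 at days 9 and 11, where replicate 3 had -0.03. As an alternative, with a replicate block the counts of members lower at day 11 than at day 1 were 41 in ev and 39 in cco-1, as without it. Depth is unknown, and for members below about 1 CPM the size of a change rests on the pseudocount.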

Other observations

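The same conditions on level and difference were met by 48 of 7570 genes with another kind of name (0.634%, beside 0.626% of the clone-named genes). They included acs-2, an acyl-CoA synthetase of fatty acid oxidation, with differences of 4.98 at day 1 and 2.02 at day 11, and icl-1, the isocitrate lyase and malate synthase of the glyoxylate cycle, with 0.80 and 3.25. Heme-responsive genes were among them, with hrg-1 at 3.31 and 2.05 and hrg-2 at 2.53 and 0.59. The cadmium-responsive cdr-2 had 3.40 and 1.31, and the alcohol dehydrogenase sodh-1 had 3.11 and 2.78. Lysosomal proteases cpr-5, cpr-8, asp-8, asp-10 and pcp-4 met the conditions as well. So did glucuronosyltransferases (ugt-2, ugt-61 and ugt-62), glutathione transferases (gst-6 and gsto-1) and cytochromes P450 (cyp-13A8, cyp-14A1, cyp-32B1, cyp-33C8 and cyp-33C9). These values chose the genes and carry no test.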
